A study of Mus musculus with 18 samples.

Results

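Poly(A)-binding proteins and the PAIP proteins that regulate them are described here by 7 genes of 27874 in the deposited table: Pabpc1, Pabpc1l, Pabpc4, Pabpn1, Paip1, Paip2 and Paip2b. They were chosen by name, with gene identifiers matched to symbols in GENCODE vM21. All 7 were found in the table, 6 of them passed the filter on low values, and Pabpn1 did not.

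RNA came from mouse oocytes of Lsm14b-/- (KO) and wild-type (WT) mice. Oocytes were taken as germinal vesicle oocytes (GV), in metaphase I (MI), or 14 h after the ovulatory hormone hCG. The last time is named MII in both genotypes, and the labels do not say that each KO oocyte had reached metaphase II. A library pooled 15 oocytes, and each of the 6 groups (KO GV, WT GV, KO MI, WT MI, KO MII and WT MII) had 3 libraries, 18 in all. The labels do not say how the Lsm14b allele was made, give no age or strain, and do not say whether replicates came from separate mice, so p-values measure the spread between these libraries.

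Poly(A)-binding proteins coat the 3′ tail of mRNA; the cytoplasmic ones (PABPC) bridge the tail to the cap-binding complex through eIF4G, which favours translation and protects the tail. PAIP1 binds PABPC and the translation initiation machinery and stimulates translation, whereas PAIP2 and PAIP2B pull PABPC off the tail and inhibit it. An oocyte that resumes meiosis makes almost no new mRNA, so it controls its proteins by lengthening and shortening the tails of stored mRNA, and PABPC1L (also called ePAB) is the cytoplasmic form that mouse oocytes need to mature.

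The 3′ ends of the members' own mRNA are shown because the tails that these proteins bind start there. Each line gives 30 bases of an annotated protein-coding transcript on build GRCm38 (mm10), 5′ to 3′ on the transcript strand, with the poly(A) signal hexamer in capitals.
Pabpc1: aattcttgctttAATAAAaattccttaaac
Pabpc1l: tttgctttatatATTAAAaaatgctgcaaa
Pabpc4: tcaaataaaggaAATAAAatctccataaat
Paip1: ttagaatttgaaAATAAAacttagtttgtt
Paip2b: atccaaccaaacAATAAAgctgactgcata

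These windows lie in the 3′ UTR at chr15:36595664-36595693 (minus strand, Pabpc1), chr2:164050505-164050534 (plus, Pabpc1l), chr4:123298794-123298823 (plus, Pabpc4), chr13:119458171-119458200 (plus, Paip1) and chr6:83805401-83805430 (minus, Paip2b). Pabpc1l carries the ATTAAA variant of the signal and the other 4 carry AATAAA. The marked hexamer ended 12 to 30 bases before the annotated end in these 5 genes. A hexamer (AATAAA or ATTAAA, transcript strand) was found in the last 40 bases of 5 of the 6 members searched, all but Pabpn1, against 78.0% of 8026 tested protein-coding genes with a 3′ UTR of at least 100 bases. The letters TTTTAT or TTTTAAT, a short form of the cytoplasmic polyadenylation element (transcript strand), stood in the last 100 bases of 20.9% of those genes and of 0 of the 6 members. That says only that these letters are not in this window of the transcript chosen.

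Lsm14b itself, the targeted gene, stood at 0.116 ± 0.117, 0.124 ± 0.0029 and 0.113 ± 0.095 FPKM in KO libraries at GV, MI and MII, against 2.30 ± 0.27, 7.08 ± 3.6 and 9.34 ± 1.7 FPKM in WT libraries (SD, n = 3; FPKM are reads scaled to exon length and library depth). Depth was 14227763 to 17183681 reads in genes per library. A list of 18 markers of cumulus and granulosa cells, which surround the oocyte, summed to 5.41 to 12.01 FPKM in every library, and the members of that list named here were chosen after their values were seen. Foxl2, Amh, Amhr2 and Lhcgr were each below 0.1 FPKM throughout. Cyp19a1 (1.89 to 6.09 FPKM), Nr5a2 (0.845 to 4.80) and Kitl (0.606 to 3.51) were above 0 in every library, and Inha and Fshr reached 2.19 and 1.95 FPKM. The 12 oocyte markers summed to 24588 to 27939 FPKM in KO GV and 22053 to 28353 in WT GV, 20002 to 22621 in KO MI and 13268 to 20916 in WT MI, and 10257 to 12037 in KO MII and 6456 to 6908 in WT MII. They stood apart between the genotypes at MII, higher in KO, as did several members, and the part of this in the members' differences was not tested. Blood markers summed to 29.8 FPKM in 1 WT MI library, of which Lyz2 gave 27.5, and to 7.27 FPKM in 1 KO MII library. The members called in KO against WT were the same without either library. KO GV was the least uniform group, with Pearson correlations across genes of 0.877 to 0.959 between its libraries, against 0.964 to 0.988 in the other 5 groups (genes are not independent replicates).

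Differences are given as log2(FPKM + 1), so that changes near or under 1 FPKM come out too small. They come from limma with a variance trend over 10320 genes in 1 model of all 18 libraries, and a difference was called at a Benjamini-Hochberg adjusted p under 0.05. FPKM are scaled to library depth, so higher, lower, rose and fell describe levels relative to the other mRNA of a library. The amount of an mRNA per oocyte cannot be read from FPKM. Scaling mattered for small differences: the median of all genes in KO against WT was 0.17 at GV and -0.13 at MI in the deposited values, and -0.043 and 0.015 after median-of-ratios scaling. Genes called higher and lower in KO numbered 1373 and 773 at GV in the deposited values and 1087 and 1445 after that scaling, and at MI 375 and 1411 against 874 and 1154.

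At GV 1 of the 6 members tested was called, higher in KO, where 20.8% of all genes were called, 13.3% higher and 7.49% lower. At MI it was 1 of 6, also higher, where 17.3% of all genes were called, 3.63% higher and 13.7% lower. At MII 4 of 6 were called, 3 higher and 1 lower in KO, where 28.6% of all genes were called, 14.9% higher and 13.8% lower. The single member called at GV and MI was Pabpc1. It passed the filter through KO libraries, since all 9 of them and only 2 of the 9 WT libraries reached 1 FPKM, so its place in these counts is a description. KO and WT libraries did not overlap in 2 of 6 members at GV, 1 at MI and 5 at MII. Over all genes this held for 31.0%, 35.7% and 50.6%, so a gap between 3 and 3 libraries is common.

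**Figure D1:**
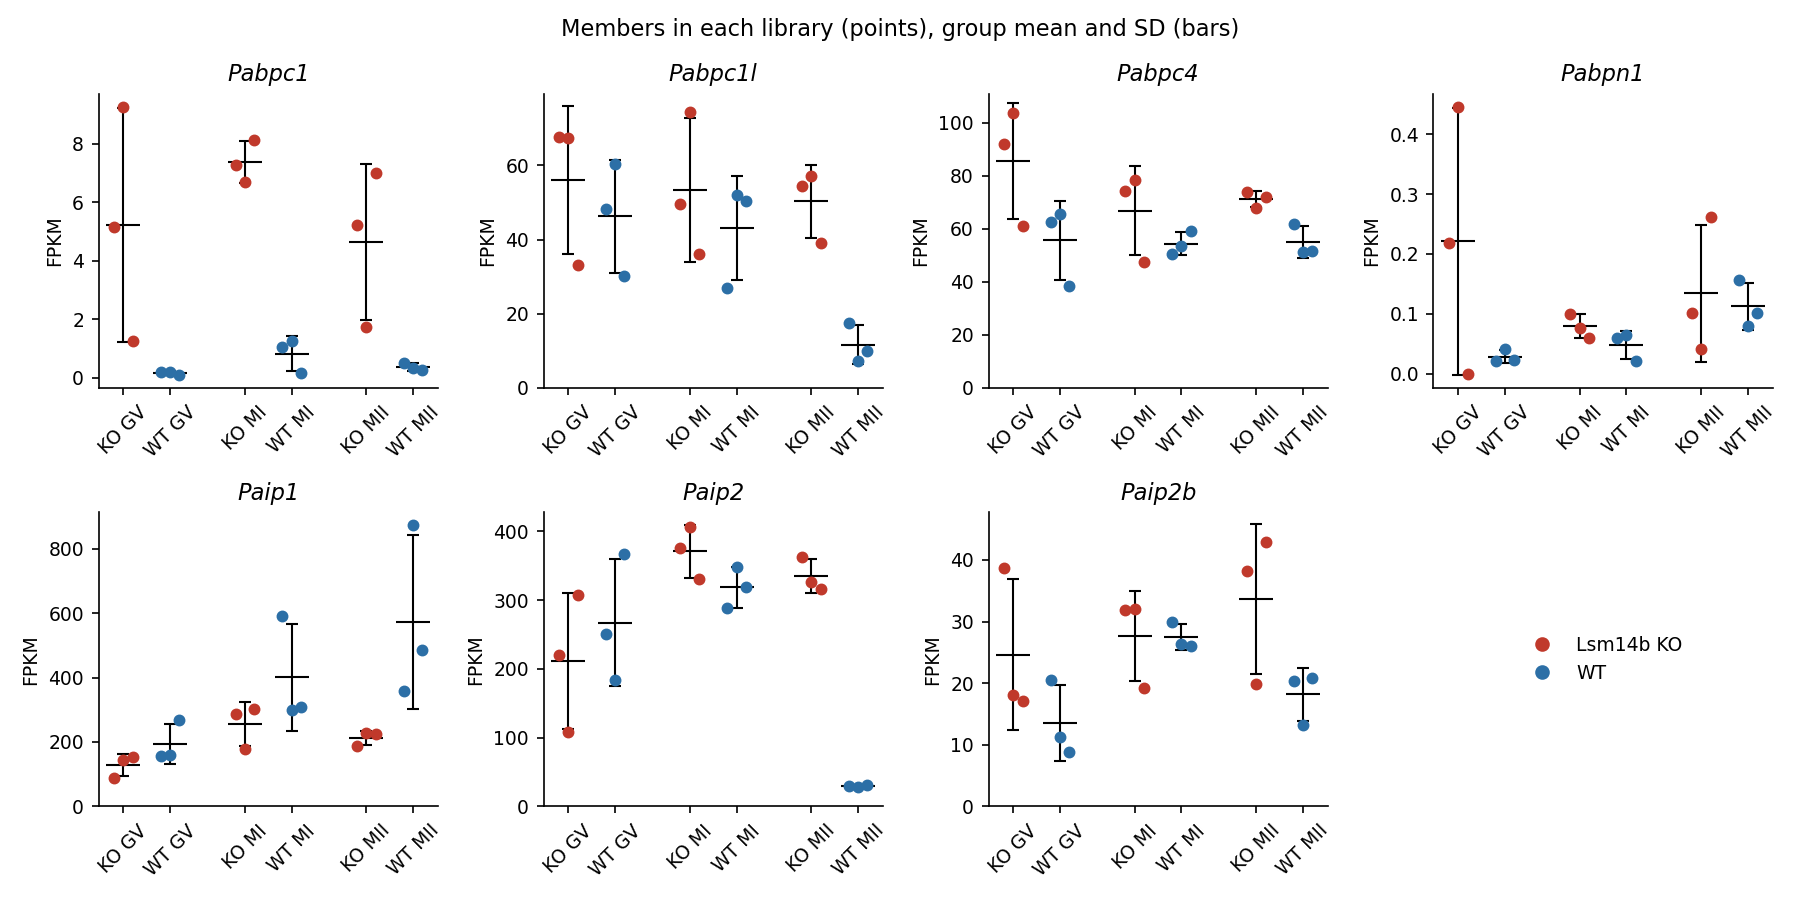
Level of each member in FPKM (y axis, from near 0, a scale of its own per gene) in the 18 libraries, by group (x axis), with KO in red and WT in blue; bars give the group mean and SD (n = 3). Paip2 in WT MII lies at 28.4 to 31.8 FPKM, below every other library, and Pabpc1 lies higher in KO than in WT at each stage.

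Among the cytoplasmic poly(A)-binding proteins, Pabpc1 was higher in KO oocytes than in WT oocytes, where it stood at or below 1.27 FPKM. Pabpc1 (ENSMUSG00000022283, chromosome 15, 36595661 to 36609668, minus strand) encodes the main cytoplasmic form of somatic cells. At GV its levels were 5.16, 9.26 and 1.25 FPKM in KO libraries and 0.201, 0.196 and 0.107 FPKM in WT libraries. These rest on 118 to 895 reads in KO and 10 to 21 reads in WT, and the groups do not overlap. At MI the levels were 7.29, 6.71 and 8.13 FPKM in KO and 1.06, 1.27 and 0.15 FPKM in WT. At MII they were 5.22, 1.74 and 6.99 FPKM in KO and 0.517, 0.325 and 0.273 FPKM in WT. All 3 KO libraries lay above all 3 WT libraries at each stage, and the KO groups overlapped one another.

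Pabpc1 rose in KO against WT by a log2 difference of 2.16 at GV (SE 0.43, adjusted p = 0.0025), 2.25 at MI (SE 0.43, adjusted p = 0.0013) and 1.91 at MII (SE 0.43, adjusted p = 0.0024). The ratio of the mean levels was 31.1 at GV, 8.92 at MI and 12.5 at MII, well above what the fitted differences give, as the mean WT levels lie below the pseudocount of 1 FPKM. With no filter on low values, adjusted p was 0.0159, 0.0104 and 0.0161. In a fit of only the groups compared, the GV difference was not called (adjusted p = 0.0562), and the leave-outs moved it between 1.67 and 2.77, the ends being without KO GV replicate 2 and without KO GV replicate 3. Its change over stages was not called in either genotype. The difference between genotypes in that change was 0.093 from GV to MI (adjusted p = 0.95) and -0.25 from GV to MII (adjusted p = 0.816). Bulk libraries cannot tell fewer cells carrying an mRNA from less of it per cell, and this holds for every level given here. Pabpc1 has processed copies in the mouse genome, and how the counting treated reads shared with them is not given in the sources used here.

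The KO and WT levels of Pabpc1l overlapped at GV and MI and stood apart at MII. Pabpc1l (ENSMUSG00000054582, chromosome 2, 164025450 to 164050538, plus strand) stood at 67.6, 67.4 and 33.0 FPKM in KO and 48.2, 60.3 and 30.1 FPKM in WT at GV. At MI the levels were 49.5, 74.3 and 36.2 FPKM in KO and 26.98, 52.0 and 50.4 FPKM in WT. At MII they were 54.5, 57.2 and 39.1 FPKM in KO and 17.5, 7.36 and 10.1 FPKM in WT. At MII even the lowest KO library holds more than the highest WT library.

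The KO against WT difference in Pabpc1l was 0.26 at GV (SE 0.37, adjusted p = 0.639) and 0.30 at MI (SE 0.37, adjusted p = 0.635), neither called, and 2.08 at MII (SE 0.37, adjusted p = 0.00037), or 4.32 times the WT mean. For MII against GV the log2 difference was -0.10 in KO oocytes (adjusted p = 0.857) and -1.93 in WT oocytes (adjusted p = 0.00028). The test of that contrast between genotypes gave 1.83 (SE 0.52, adjusted p = 0.0477). It lies at the edge of the threshold: 14 of 29 alternatives, 10 of them leaving out 1 library, did not call it, with adjusted p up to 0.142.

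Pabpc4 was the most abundant cytoplasmic member on the FPKM scale and was not called in any comparison. Pabpc4 (ENSMUSG00000011257, chromosome 4, 123262351 to 123298925, plus strand) encodes a further cytoplasmic form. At GV it stood at 92.0, 104 and 61.1 FPKM in KO and 62.7, 65.7 and 38.4 FPKM in WT. At MI the levels were 74.4, 78.6 and 47.6 FPKM in KO and 50.4, 53.5 and 59.1 FPKM in WT. At MII they were 74.0, 68.0 and 71.8 FPKM in KO and 62.0, 51.3 and 51.5 FPKM in WT. The KO libraries all lie above the WT libraries at MII, and overlap them at GV and MI. The KO against WT differences were 0.62 at GV (SE 0.26, adjusted p = 0.0885), 0.26 at MI (SE 0.26, adjusted p = 0.531) and 0.37 at MII (SE 0.26, adjusted p = 0.300), and without KO GV replicate 3 the GV difference was called at 0.84 (adjusted p = 0.0169). With library quality weights Pabpc4 was called at GV (0.58, adjusted p = 0.0055) and at MII (0.41, adjusted p = 0.0496).

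Pabpn1 (ENSMUSG00000022194, chromosome 14, 54892500 to 54898169, plus strand) encodes the nuclear form that sets tail length when an mRNA is made. It reached at most 0.446 FPKM, from 0 to 20 reads per library, and was not tested. KO libraries held 0 to 0.446 FPKM at GV, 0.0599 to 0.1 at MI and 0.0407 to 0.262 at MII, against 0.0217 to 0.0402, 0.0215 to 0.0651 and 0.0801 to 0.156 FPKM in WT libraries, so the genotypes overlap at each stage. Another gene on the same strand, Gm20521, covers 651 of its exon bases (21.4%), so reads there cannot be assigned to 1 of the 2 with certainty.

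**Figure D2:**
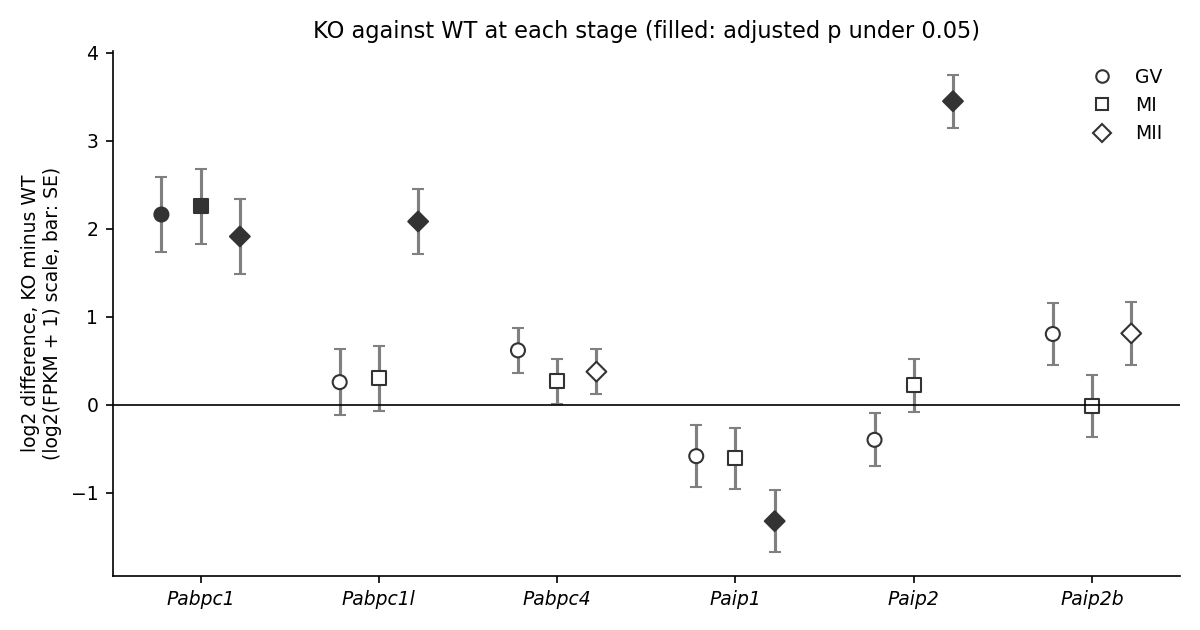
Difference between KO and WT in each member tested (x axis), as log2(FPKM + 1) in KO minus WT (y axis), with SE as bars, at GV (circles), MI (squares) and MII (diamonds); filled symbols have an adjusted p under 0.05. Pabpc1 is called at the 3 stages, Pabpc1l, Paip1 and Paip2 at MII alone, and Pabpc4 and Paip2b at none.

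Paip1, the activator, was lower in KO oocytes at MII. Paip1 (ENSMUSG00000025451, chromosome 13, 119428601 to 119458218, plus strand) stood at 88.4, 144 and 153 FPKM in KO and 155, 161 and 267 FPKM in WT at GV, without overlap. At MI the levels were 287, 177 and 301 FPKM in KO and 592, 300 and 308 FPKM in WT. At MII they were 188, 227 and 224 FPKM in KO and 358, 874 and 485 FPKM in WT. Every KO library at MII lay below every WT library, and WT MII replicate 2 was the highest of all 18.

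Differences in Paip1 between KO and WT were -0.59 at GV (SE 0.35, adjusted p = 0.222), -0.61 at MI (SE 0.35, adjusted p = 0.248) and -1.32 at MII (SE 0.35, adjusted p = 0.0077), where the KO mean was 0.372 times the WT mean. Without WT MII replicate 2 the MII difference was -0.97 and not called (adjusted p = 0.0589). Between GV and MII the difference in Paip1 was 0.76 in KO (adjusted p = 0.0944), and in WT it rose by 1.50 (adjusted p = 0.0014). The difference between genotypes in that change was not called (-0.74, SE 0.49, adjusted p = 0.331).

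Paip2, the inhibitor, was higher in KO than in WT oocytes at MII. Paip2 (ENSMUSG00000037058, chromosome 18, 35598617 to 35617187, plus strand) stood at 220, 109 and 307 FPKM in KO and 251, 184 and 367 FPKM in WT at GV. At MI the levels were 376, 406 and 330 FPKM in KO and 288, 348 and 319 FPKM in WT. At MII they were 363, 327 and 316 FPKM in KO and 29.2, 28.4 and 31.8 FPKM in WT. The genotypes overlap at GV and MI. The 3 WT libraries at MII hold 1301 to 1440 reads, against 14392 to 16552 reads in KO.

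Paip2 rose in KO against WT at MII by 3.45 (SE 0.30, adjusted p = 2.3e-07), with a mean 11.3 times that of WT, while the differences at GV (-0.40, SE 0.30, adjusted p = 0.34) and MI (0.22, SE 0.30, adjusted p = 0.676) were not called. In KO it rose at MII against GV by 0.78, at the edge of the threshold (adjusted p = 0.0495), and 19 of 29 alternatives did not call that rise. Without KO GV replicate 2 it was 0.36 (adjusted p = 0.277). In WT its level fell by 3.07 on the log2 scale at MII against GV (adjusted p = 1.4e-07). The genotypes differed in this stage change by 3.85 (SE 0.43, adjusted p = 4.4e-05), and all 29 alternatives called that difference. Paip2 FPKM are whole reads at a length of 2789 bases and not at the 3541 exon bases of GENCODE vM21, so its level relative to other genes depends on which length is used.

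Paip2b, the close relative of Paip2 with the same action, was not called in any comparison. Paip2b (ENSMUSG00000045896, chromosome 6, 83805401 to 83831741, minus strand) stood at 38.7, 18.04 and 17.05 FPKM in KO and 20.5, 11.2 and 8.8 FPKM in WT at GV. At MI the levels were 31.9, 32.0 and 19.3 FPKM in KO and 29.9, 26.4 and 26.0 FPKM in WT. At MII they were 38.2, 19.9 and 43.0 FPKM in KO and 20.4, 13.3 and 20.9 FPKM in WT. The genotypes overlap at all 3 stages. KO against WT differences were 0.80 at GV (SE 0.35, adjusted p = 0.105), -0.019 at MI (SE 0.35, adjusted p = 0.979) and 0.81 at MII (SE 0.35, adjusted p = 0.0962). Leaving out 1 library brought a call at GV (1.00 without KO GV replicate 3, adjusted p = 0.0434) and at MII (1.14 without KO MII replicate 2, adjusted p = 0.032). Library quality weights also brought a call at GV (1.08, adjusted p = 0.0016) and at MII (0.84, adjusted p = 0.013). Median-of-ratios scaling did so at MII (0.84, adjusted p = 0.0471).

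Over the stages, KO oocytes changed 1 of the 6 members tested between GV and MII, Paip2 higher, where 37.2% of all genes were called, 11.9% higher and 25.4% lower. WT oocytes changed 3 of 6 over the same stages: Paip1 was higher, and Pabpc1l and Paip2 were lower. In that comparison 57.7% of all genes were called, 28.9% higher and 28.8% lower, so the share of members is near the background. MI against GV gave 0 calls of 6 in KO, where 13.0% of all genes were called, and 0 of 6 in WT, where 4.82% were. At an unadjusted p under 0.05, limma gave 2 members in each of these, Paip1 and Paip2 in KO and Paip1 and Paip2b in WT, and the voom fit called 1 in KO and 0 in WT. Over all genes voom called 1213 of 10313 in KO and 458 in WT, and the share at an unadjusted p under 0.05 is not given here. In KO the nearest to the threshold was Paip2 at 0.92 (adjusted p = 0.0504).

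The genotypes differed in the change from GV to MII in 2 of 6 members, Pabpc1l and Paip2, both higher in KO, where 5.61% of all genes were called, 3.88% higher and 1.73% lower. In the change from GV to MI the genotypes differed in 0 of 6, where 0.0775% of all genes were called; at an unadjusted p under 0.05 limma gave 0 members, and voom called 0.

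Ordered by group mean, neighbouring groups mostly overlapped; a group is called clear of its neighbour here where their libraries do not overlap, which is no test. For Paip2 the means run from KO MI (371) over KO MII (335), WT MI (319), WT GV (267) and KO GV (212) to WT MII (29.8 FPKM), and only WT MII is clear of its neighbour. In Pabpc1l as well, WT MII (11.6 FPKM) alone stands clear below the other 5 groups, which run from 56.0 to 43.1 FPKM and overlap their neighbours. Paip1 runs from WT MII (573) down to KO GV (128 FPKM), and only KO GV is clear of the group above it, WT GV (194), by 152.9 against 155.02 FPKM at the edge and with no call between them (adjusted p = 0.222). For Pabpc1 the 3 KO means (7.38, 5.22 and 4.65 FPKM) stand above the 3 WT means (0.827, 0.372 and 0.168 FPKM), and WT MII is also clear of WT GV, with no call between them (adjusted p = 0.658). Pabpc4 and Paip2b show no gap between neighbours.

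Within the summed FPKM of the 3 cytoplasmic genes, the Pabpc1l share stood apart between the genotypes at GV and, the other way, at MII. Pabpc1l gave 39.7% ± 6.0 of the sum in KO MII and 16.9% ± 4.7 in WT MII (SD, n = 3), and Pabpc4 gave 56.6% ± 3.8 and 82.6% ± 4.8. Pabpc1 gave 3.73% ± 2.3 in KO MII and 0.546% ± 0.10 in WT MII. The sum itself was 118 to 134 FPKM in KO MII and 59.0 to 79.9 FPKM in WT MII. At GV Pabpc1l gave 34.6% to 41.0% in KO and 43.4% to 47.8% in WT, without overlap, and at MI 37.7% to 46.6% in KO and 34.4% to 48.7% in WT, which overlap. The Pabpc1l means at GV were 56.0 FPKM in KO and 46.2 FPKM in WT. These levels overlapped and were not called different (log2 0.26, limma adjusted p = 0.639), and the sign changed after median-of-ratios scaling (-0.040). What lay behind the lower KO share was not tested. The other means at GV were 85.6 and 55.6 FPKM for Pabpc4 and 5.22 and 0.168 FPKM for Pabpc1. Pabpc1 gave 1.31% to 5.14% in KO and 0.155% to 0.181% in WT at GV, and 4.21% to 8.84% in KO and 0.137% to 1.35% in WT at MI, without overlap at either stage. These shares were chosen with the levels known and carry no test. They also depend on the length that FPKM divide by. The exon bases are 6540 for Pabpc1, 2724 for Pabpc1l and 4027 for Pabpc4, and the transcripts shown above have 2817, 2354 and 3019 bases.

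For the PAIP genes the ratio of inhibitors to activator, Paip2 plus Paip2b over Paip1, was 1.53 to 2.13 in KO MII and 0.0476 to 0.138 in WT MII. It spanned 0.880 to 2.92 in KO GV and 1.21 to 1.75 in WT GV, and 1.16 to 2.47 in KO MI and 0.537 to 1.25 in WT MI. Only at MII do the ranges of the genotypes stand apart. Paip2 exceeded Paip2b by 7.35 to 16.4 times in KO MII and by 1.43 to 2.14 times in WT MII. Like the shares above, these ratios were chosen with the levels known and carry no test. Their size depends on the length that FPKM divide by. That length is 2789 bases for Paip2, 6335 for Paip2b and 3456 for Paip1, and the transcripts shown above have 3982 bases for Paip2b and 2551 for Paip1.

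**Figure D3:**
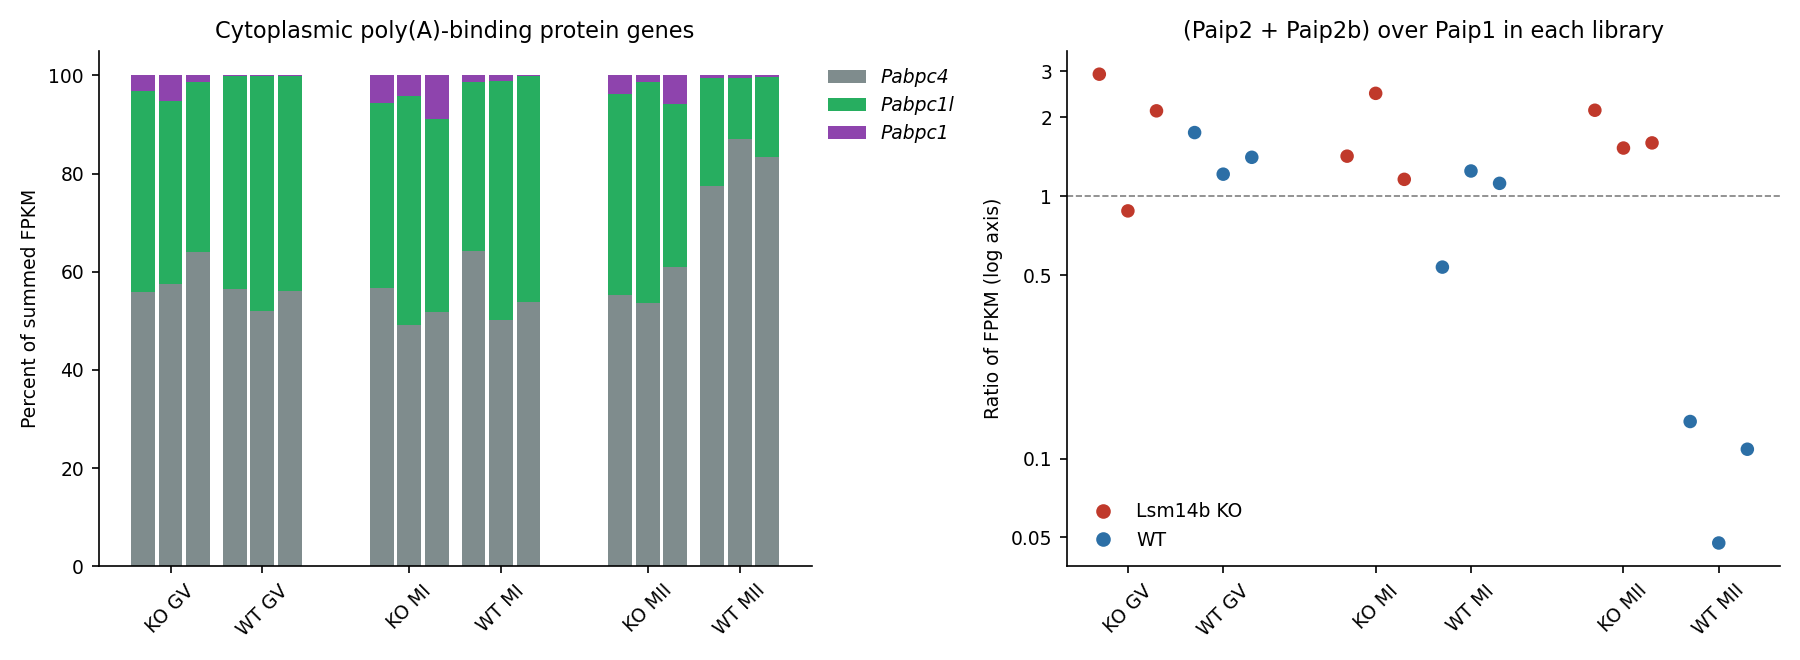
Left, share of Pabpc1, Pabpc1l and Pabpc4 in their summed FPKM (y axis, percent) in each of the 18 libraries, by group; right, ratio of Paip2 plus Paip2b to Paip1 in each library (y axis, log scale), KO in red and WT in blue. In KO MII Pabpc1l holds a mean of 39.7% of the sum and the ratio is at least 1.53, against 16.9% and at most 0.138 in WT MII.

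The genes whose log2(FPKM + 1) over the 18 libraries was most like that of a member were named by Pearson's r among genes with a mean of at least 5 FPKM, 3 per member. The libraries share stage and genotype, so these r describe a common pattern and carry no p. Closest to Paip2 were Trappc6b (0.958), Cd9 (0.947) and Amz2 (0.947). Rab1b (0.966), Wbp2 (0.950) and Mapk3 (0.940) were closest to Pabpc1l. For Pabpc1 they were Slc25a15 (0.947), Vrtn (0.946) and Matr3 (0.935), and for Paip1 they were D7Ertd443e (0.925), Rpa3 (0.916) and Pigf (0.912). Pabpc4 and Paip2b had weaker matches, the best being Mcrs1 (0.866) and Prkd1 (0.858). Between members, r was highest for Pabpc1l with Paip2 (0.768) and lowest for Pabpc1l with Paip1 (-0.80).

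Other genes that work with the tail were counted in 5 lists of 64 genes, of which 55 were tested. Among the other poly(A)-binding proteins 2 were tested, and Pabpn1l, an oocyte form that takes part in maternal mRNA decay, was lower in KO at each stage. Pabpn1l stood at 7.81, 15.3 and 7.32 FPKM in KO and 139, 131 and 137 FPKM in WT at GV. At MI it stood at 2.90, 6.54 and 5.99 FPKM in KO and 126, 50.0 and 80.3 FPKM in WT, and at MII at 3.69, 5.29 and 8.87 FPKM in KO and 55.4, 73.0 and 85.1 FPKM in WT. The groups are far apart at each stage, with log2 differences of -3.69, -3.77 and -3.42 (adjusted p at most 2.8e-06). Zc3h14, a nuclear poly(A)-binding zinc finger protein, differed by -0.37 or less in size (adjusted p at least 0.198). Pabpc4l and Pabpc6, further cytoplasmic family members, stayed under 0.31 FPKM.

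Partners that dock on the PABPC protein through PAM2 or MLLE motifs were called higher in KO in 5 of 13 at GV, in 0 at MI, and lower in 2 of 13 at MII. Of all genes, 13.3% were higher at GV, 3.63% higher at MI and 13.8% lower at MII, so the MII count is near the background. At GV these were Tob2 (log2 1.83, adjusted p = 0.0215), which links PABPC to deadenylases, Tnrc6a (1.07) and Tnrc6b (1.08) of the microRNA silencing complex, Gspt1 (1.18), the release factor eRF3a, and Larp4b (1.03). The count depended on single libraries: it was 0 without KO GV replicate 1, without KO GV replicate 2, without WT GV replicate 3, with no filter and with only the groups compared, and 9 without KO GV replicate 3. The number higher over all genes moved as well, from 1373 of 10320 as reported. In the fits that gave 0 it was 650, 467, 430, 844 of 27874 and 92, in that order. Without KO GV replicate 3 it was 3050. At MI, 2 of 13 were higher at an unadjusted p under 0.05 in limma, voom called 0, and median-of-ratios scaling gave 4. Over all genes voom called 353 of 10313 higher at MI, and median-of-ratios scaling gave 874 of 10320. Medians of this list were 0.76 at GV, 0.52 at MI and 0.15 at MII, against 0.17, -0.13 and 0.0072 for all genes. At MII Atxn2 (-0.83, adjusted p = 0.0054) and Pan3 (-0.82, adjusted p = 0.0161), a subunit of a deadenylase, were lower. Between GV and MII, 1 of 13 rose and 1 fell in KO, where 11.9% of all genes rose and 25.4% fell, and 7 rose and 0 fell in WT, where 28.9% rose and 28.8% fell.

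Cap-binding and termination partners were called higher and lower in KO in 3 and 0 of 15 at GV, 1 and 1 at MI, and 3 and 1 at MII. With 13.3% and 7.49% of all genes higher and lower at GV, 3.63% and 13.7% at MI and 14.9% and 13.8% at MII, these counts are near the background. Eif4h, a cofactor of the helicase eIF4A, was higher at each stage and stood at 12.9 ± 2.1 FPKM in KO MII and 0.548 ± 0.028 in WT MII (log2 3.15, SE 0.34, adjusted p = 2.5e-06). Eif4e, the cap-binding protein, rose at MII (1.34, adjusted p = 0.045) and Eif4e3, its relative, fell (-0.98, adjusted p = 0.0198). Etf1, the release factor eRF1, rose at GV (0.76, adjusted p = 0.0258). Without KO GV replicate 2 the GV counts were 0 and 0, where 467 and 564 of 10320 genes were higher and lower. Without KO GV replicate 3 the GV counts were 6 and 1, where 3050 and 1080 genes were higher and lower. List medians were 0.21, 0.062 and 0.11.

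Tail synthesis genes were called higher and lower in KO in 2 and 1 of 14 at GV, 0 and 3 at MI, and 3 and 1 at MII, also near those shares of all genes. Cpsf4, a subunit that recognises the hexamer shown above, stood at 4.61 ± 2.1 FPKM in KO MII and 0.364 ± 0.052 in WT MII (log2 1.98, adjusted p = 8.1e-05). Nudt21, a cleavage factor subunit, was higher at GV (1.01, adjusted p = 0.0464) and MII (1.84, adjusted p = 0.00061). Cpsf4l, a relative of Cpsf4, was lower at GV (-1.41, adjusted p = 0.0089) and MI (-1.87, adjusted p = 0.00096). Without KO GV replicate 2 the GV counts were 0 and 1, where 467 and 564 of 10320 genes were higher and lower. After median-of-ratios scaling the MI counts were 2 and 2, where 874 and 1154 genes were higher and lower. Medians were 0.021, 0.13 and -0.13, and the GV median was -0.21 after that scaling.

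Tail removal genes were called lower in KO in 3 of 11 at GV, 6 of 11 at MI and 6 of 11 at MII, and higher in 0. After median-of-ratios scaling 5, 4 and 6 were lower and 0, 1 and 1 higher, and without KO GV replicate 3 the GV counts were 4 lower and 2 higher. At an unadjusted p under 0.05 limma gave 5, 8 and 8 lower and 1, 0 and 0 higher, and voom called 4, 6 and 7 lower and 0 higher. In limma on the deposited values, the shares called lower among all genes were 7.49%, 13.7% and 13.8%. After median-of-ratios scaling 1445, 1154 and 1669 of 10320 genes were lower, and with voom 744, 1337 and 1459 of 10313. Without KO GV replicate 3, 1080 of 10320 genes were lower and 3050 higher at GV. The share of all genes at an unadjusted p under 0.05 is not given here, so those counts have no background. Noct, a gene of the deadenylase-like nuclease family, stood at 2.81 ± 0.86 FPKM in KO MII and 17.2 ± 2.2 in WT MII (log2 -2.28, adjusted p = 0.00013). Cnot3, a subunit of the CCR4-NOT deadenylase, stood at 2.62 ± 0.43 and 13.8 ± 3.3 FPKM in the same groups (-2.02, adjusted p = 0.00013), and Cnot6, a catalytic subunit, differed by -1.40 (adjusted p = 0.00021). Btg4, the oocyte adaptor of CCR4-NOT, was lower at the 3 stages, by -1.27 at MII (adjusted p = 0.00048). List medians were -0.21, -0.83 and -0.96, and between GV and MII 2 of 11 rose in KO, where 11.9% of all genes did, and 6 of 11 in WT, where 28.9% did.

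**Figure D4:**
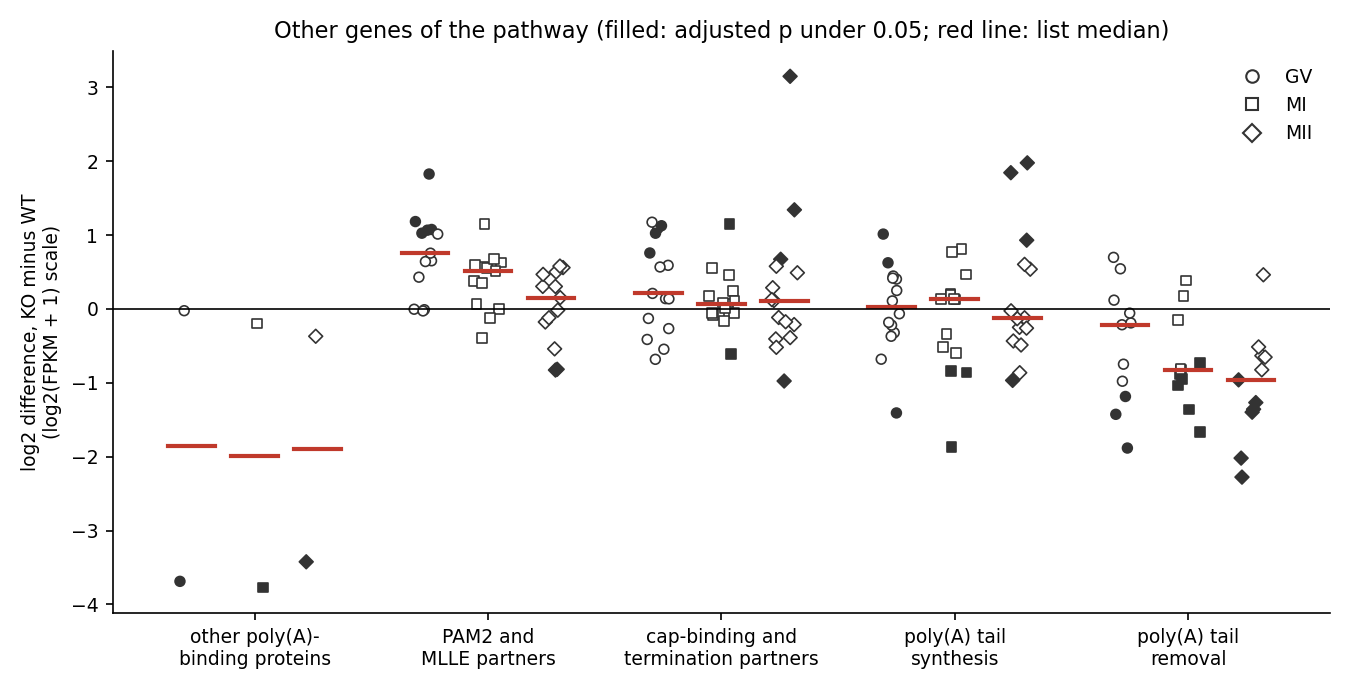
Difference between KO and WT, as log2(FPKM + 1) in KO minus WT (y axis), for the 55 tested genes of 5 lists (x axis) at GV (circles), MI (squares) and MII (diamonds); filled symbols have an adjusted p under 0.05 and red lines are list medians. Filled symbols of the tail removal list lie below 0, and Eif4h at 3.15 and Pabpn1l at -3.77 are the ends of the range.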

How the data were processed

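RNA of 18 libraries was measured by oligo(dT)-primed Smart-seq2, per the labels' protocols, so the amount of an mRNA and the length of its tail cannot be told apart. The deposited table holds FPKM, computed by the authors. Per the submitters' processing notes, mm10 and DESeq2 1.38.3 were used, with no role stated. Which aligner, counter, annotation and strand setting were used is not given in the sources used here. FPKM times GENCODE vM21 exon length fell within 0.05 of a whole read in 92.8% to 93.3% of each library's values above 0, which gave its depth (14227763 to 17183681 reads). PCR copies were not collapsed by molecular identifiers, so read numbers cover counting error only. Of 27874 genes, 27829 matched GENCODE vM21 and 45 did not.

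Genes of at least 1 FPKM in at least 3 libraries were tested (10320). log2(FPKM + 1) was fitted with limma 3.58.1 (R 4.3.3) as 6 group means with a variance trend and 12 residual degrees of freedom, after a check on simulated data. The contrasts set KO against WT at 1 stage, a later stage against GV in 1 genotype, and the stage change in KO against that in WT; p-values are two-sided, adjusted by Benjamini-Hochberg within each comparison. Alternatives were pseudocounts of 0.1 and 5, no filter or 5 FPKM, scaling by median of ratios, quantiles or TPM, only the groups compared, a replicate block, library quality weights, voom on recovered reads, and leaving out each library. Tables and figures used Python 3.11.15, numpy 2.4.6, pandas 2.3.3 and matplotlib 3.10.9.

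Named genes were the 7 members, Lsm14b, up to 4 genes per list with the smallest p in KO against WT, and 3 most similar genes per member. Members and lists were chosen with earlier results of these data known. Genes named beyond that rule (Gspt1, Larp4b, Pan3, Eif4e, Pabpc4l, Pabpc6 and single markers) were chosen after their values were seen. The sequence of Paip2 is not reported here, and protein sequences were not used here.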

Additional observations from a re-analysis of the deposited data

Results flagged for a closer look

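Paip2 stood out because its change between GV and MII differed between the genotypes. The change was 0.78 in KO (adjusted p = 0.0495) and -3.07 in WT (adjusted p = 1.4e-07, limma), a difference of 3.85 (SE 0.43, adjusted p = 4.4e-05). All 3 KO libraries at MII held more Paip2 than every KO library at GV, and all 3 WT libraries at MII held less than every WT library at GV. Such gaps are common, as 16.6% of all genes stood apart higher in KO and 33.4% stood apart lower in WT.

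Pabpc1l differed likewise, with -0.10 in KO (adjusted p = 0.857) and -1.93 in WT (adjusted p = 0.00028), a difference of 1.83 (SE 0.52, adjusted p = 0.0477). The 3 WT libraries at MII lay below all WT libraries at GV, as in 33.4% of all genes, while the KO libraries of the 2 stages overlapped.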

How the results depend on the processing

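Of 54 member differences, 12 were called and 8 of these held in all 29 alternatives; no called difference changed sign. The other 4 were Pabpc1 at GV, Paip1 at MII, the Pabpc1l difference between genotypes and the Paip2 rise in KO, given above. Of 42 differences not called, 32 were called in no alternative.

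Counts of called members moved by over 1.5 times in 5 comparisons. In KO against WT at MII (4), which moved by no more than that, Pabpc4 and Paip2b were added with library quality weights. Paip2b was also added with median-of-ratios scaling or without KO MII replicate 2, and Paip1 was lost without WT MII replicate 2. KO against WT at GV (1) was 0 with only the groups compared and 4 with library quality weights, and 1 to 3 over the leave-outs. The calls over all 10320 genes moved as well. They were 2146 as reported, 302 with only the groups compared, 5271 with weights and 900 to 4130 over the leave-outs. MI against GV in KO (0) was 1 with a filter at 5 FPKM, TPM scaling or voom, 2 with quantile normalization or weights, and 0 to 2 over the leave-outs. Over all genes 1337 were called as reported, 905 of 5771 with that filter, 1196 with TPM scaling and 1213 of 10313 with voom. Quantile normalization called 1894, weights 3735 and the leave-outs 791 to 1912. MI against GV in WT (0) was 1 with only the groups compared or weights, and 0 to 1 over the leave-outs. All-gene calls were 497 as reported, 616 with only the groups compared, 2537 with weights and 40 to 1438 over the leave-outs. MII against GV in KO (1) was 0 with a pseudocount of 5, no filter, median-of-ratios scaling or only the groups compared, 2 with quantile normalization, TPM scaling or weights, and 0 to 1 over the leave-outs. Of all genes 3842 were called as reported. The settings with 0 members called 3707, 4030 of 27874, 4729 and 2432 genes, in that order. Quantile normalization called 5183, TPM scaling 4060, weights 5348 and the leave-outs 3052 to 4219. The genotype difference from GV to MII (2) was 1 with a pseudocount of 5, no filter, TPM scaling or only the groups compared, and 1 to 2 over the leave-outs. Those settings called 565, 268 of 27874, 630 and 429 of all genes, in that order, against 579 as reported. The cause was not tested. A leave-out leaves 2 libraries in its group, which share the spread of the others. The method behind the quality weights was chosen after seeing that the default gave 1 library a very high weight.

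In 20 differences that were not called, the sign changed in at least 1 alternative, and none was called where it did. With median-of-ratios scaling, MII against GV in KO became 0.16 for Pabpc1 and 0.11 for Pabpc1l, MI against GV in KO 0.037 for Pabpc1l, MI against GV in WT -0.39 for Pabpc4 and -0.097 for Paip2, MII against GV in WT -0.098 for Pabpc4, KO against WT -0.040 for Pabpc1l at GV and 0.17 for Paip2b at MI, the genotype difference to MI 0.14 for Pabpc4 and 0.47 for Paip1, and that to MII 0.081 for Pabpc4. Quantile normalization gave 0.29 for Pabpc1 and 0.010 for Pabpc1l at MII against GV in KO, 0.0074 for Pabpc1l at MI against GV in KO, -0.057 for Pabpc4 at MI against GV in WT and 0.15 for Paip2b in KO against WT at MI. TPM scaling gave 0.14 for Pabpc1 and 0.048 for Pabpc1l at MII against GV in KO, 0.0032 for Paip2b in KO against WT at MI, and genotype differences of -0.18 for Pabpc1 to MI and -0.10 for Paip2b to MII. Pseudocounts of 0.1 and voom gave 0.020 and 0.024 for Pabpc1 at MII against GV in KO, -0.59 and -0.93 for its genotype difference to MI, and -0.0077 and -0.011 for that of Paip2b to MII; a pseudocount of 5 gave -0.00043 for Pabpc4 at MI against GV in WT. Quality weights gave -0.18 for the genotype difference of Pabpc1 to MI, -0.18 and -0.15 for Pabpc4 at MI and MII against GV in WT, 0.11 for Paip2b in KO against WT at MI, -0.22 and -0.016 for Paip2b at MI and MII against GV in KO, and -0.24 for its genotype difference to MII.

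Leaving out 1 library moved KO against WT at GV between -0.018 and 0.59 for Pabpc1l and between -0.73 and 0.015 for Paip2, and at MI between -0.0034 and 0.54 for Pabpc1l and between -0.14 and 0.21 for Paip2b. For MII against GV in KO the ranges were -0.63 to 0.47 for Pabpc1 and -0.44 to 0.069 for Pabpc1l, and for MI against GV in KO -0.39 to 0.18 for Pabpc1l. In WT they were -0.37 to 0.20 for Pabpc1l and -0.24 to 0.14 for Pabpc4 at MI, and -0.23 to 0.15 for Pabpc4 at MII. Genotype differences to MI ranged from -0.51 to 0.58 for Pabpc1, -0.29 to 0.31 for Pabpc1l and -0.28 to 0.30 for Paip1, and those to MII from -0.86 to 0.24 for Pabpc1 and -0.32 to 0.37 for Paip2b.

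The replicate block, with the replicate number as a covariate, gave 1, 1 and 4 called members in KO against WT at GV, MI and MII, as without it, and changed no other count. The labels do not say that the shared numbers pair the libraries. Over 45 pairs of the same number, deviations from the group means correlated at -0.52 to 0.42 (median -0.050), and 5 of 18 libraries correlated best with their own number. All 3 pairs were over 0.1 (0.24, 0.26 and 0.42) between KO MI and KO MII, 2 groups not compared here, and between no other 2 groups. Genes under about 1 FPKM, such as Pabpn1 and Pabpc1 in WT, rest on few reads.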
